A study of Mus musculus with 8 samples.

Results

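F-box genes were followed across cultured mouse hippocampal neurons in which the deadenylase CNOT7 had been knocked down, and across RNA fractions sorted by poly(A) tail length. Of the 23845 entries in the gene table, 78 carried an Fbxl, Fbxo or Fbxw symbol followed by a number, and the 54 whose mean over all 8 libraries was at least 1 TPM (a length-corrected share of all transcripts in a library) are described here. The members were selected on symbol and on this mean, which draws on the same libraries as the comparisons. They comprised 17 Fbxl, 29 Fbxo and 8 Fbxw genes among 13681 genes that passed the same limit. One of the 17, Fbxl12os, is annotated with the type antisense and carries the symbol without being an adaptor. It lies beside Fbxl12 on the opposite strand, and the annotated spans do not overlap. Fbxl16 was set apart from the other 53 because its difference after knockdown was already known, so its knockdown values are given as a description without a test.

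All neurons were primary cultures from embryonic day 19 mice, and all received lentivirus at 13 to 15 days in vitro and were harvested at 17 to 19 days. The virus carried a hairpin against CNOT7 in the knockdown cultures and a scrambled hairpin in the others. RNA was bound to poly(U) agarose, from which elution at 75 °C gave total poly(A) RNA, whereas a preceding wash at 50 °C, stated to remove tails shorter than 50 nucleotides, left the long-tail fraction. The groups were knockdown total, scrambled total, knockdown long tails and scrambled long tails, with 2 libraries each. The labels name no strain, do not say how many hairpins were used, and leave unsaid whether libraries of 1 group, or the 2 fractions, derive from the same culture. The p-values below therefore describe only the spread between these samples.

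F-box proteins are the substrate-binding subunits of SCF ubiquitin ligases, in which the F-box docks on SKP1, SKP1 on the scaffold CUL1, and CUL1 carries the RING protein RBX1 and a charged E2 enzyme. The letter after Fbx names the domain that holds the substrate: leucine-rich repeats in Fbxl, WD40 repeats in Fbxw, and other domains in Fbxo. In neurons these ligases are known for the turnover of synaptic, cell-cycle and clock proteins. CNOT7 is a catalytic subunit of the CCR4-NOT complex, which shortens poly(A) tails.

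Cnot7 stood at 12 and 16 TPM in the knockdown total libraries, against 42 and 36 TPM in the scrambled total libraries. In long tails it stood at 9 and 11 TPM in knockdown libraries, against 28 and 31 TPM in scrambled libraries. The labelled knockdown and scrambled libraries thus did not overlap for the targeted gene in either fraction. All 7 pan-neuronal markers passed the limit, whereas 5 of 8 microglial and 2 of 7 endothelial and mural markers were at 0 in every library. Of the 7, 4 were higher and 3 lower after knockdown in total RNA, and 5 higher and 2 lower in long tails. Among all genes 32.6% and 32% were higher. Their summed level ran from 3578 to 4305 TPM in knockdown total libraries, against 3326 to 3861 TPM in scrambled total libraries, and overlapped. In long tails it ran from 3252 to 3500 TPM in knockdown libraries, against 2847 to 3065 TPM in scrambled libraries, without overlap. Oligodendrocyte-lineage markers moved with the groups: 10 of 10 were lower after knockdown in both fractions, beside 60.2% of all tested genes in total RNA and 61.2% in long tails, and their summed level ran from 1244 to 1255 TPM in knockdown total libraries, against 1826 to 1981 TPM in scrambled total libraries. In long tails that sum ran from 1067 to 1355 TPM in knockdown libraries, against 1585 to 1988 TPM in scrambled libraries. Astrocyte markers were also mostly lower, 7 of 8 in total RNA with a median log2 difference of −0.25 and 6 of 8 in long tails with a median of −0.34, beside medians of −0.41 and −0.35 for the oligodendrocyte list. The summed astrocyte level ran from 3660 to 5701 TPM in knockdown total libraries, against 4548 to 5790 TPM in scrambled total libraries, and from 3125 to 4359 TPM in knockdown long tails, against 3908 to 4488 TPM in scrambled long tails, so these sums overlapped. The part of any of these lists in the results below was not tested. In such bulk samples a different number of cells of a type and a different amount of RNA per cell cannot be told apart. The ribosomal precursor Rn45s took from 2.90% to 18.6% of the TPM of a library, the lowest and the highest both in knockdown long-tail libraries.

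Because the fractions are separated by the poly(A) tail, the 3′ ends of the transcripts are shown first. The sequences below are 30-base stretches near the ends of the representative GENCODE M21 transcripts (mm10), written 5′ to 3′ on the transcript strand. The first set holds 6 members with a mean of at least 10 TPM that contain the letters TTTTAT, in capitals, within their last 200 bases. These letters are a form of the cytoplasmic polyadenylation element, the site bound by CPEB proteins, which set tail length in oocytes and neurons.
Fbxl16: tttcttgtgctaTTTTATcacgtgacctgt
Fbxl20: gttctaattttgTTTTATgatgtaattaaa
Fbxo25: taaaatgtgctgTTTTATtttaaaaataat
Fbxo33: gatgtggtgagaTTTTATcttgtatatgtg
Fbxo18: atgtatttaaacTTTTATtacaaggtttca
Fbxw4: taccattgtaatTTTTATaaaaataaaatt

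The second set holds members whose values recur below, with the cleavage signal AATAAA in capitals.
Fbxo2: aagtgggcactcAATAAAtatttgtccaaa
Fbxl2: atccccagtatgAATAAAacaagctgttaa
Fbxo9: ataaagatcataAATAAAtgtttctttcaa
Fbxo41: ggttctgtatccAATAAAagatggtgaaac
Fbxo11: tcattttttaaaAATAAAgtttattagatc

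TTTTAT, searched on the transcript strand, was present in 11 of the 50 members that had a window of 200 bases, which is 22% and close to the 24.0% of all 11546 tested genes with such a window. In Fbxl16 it began 46 bases from the annotated end. AATAAA lay within the last 50 bases of 34 of these 50 members, or 68.0%, against 65.1% of all genes, and it was not found there in Fbxl16. A match to letters is a description of the annotated end and says nothing of binding, and no match says only that these letters are not in that window.

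The family was expressed over a wide range, and a pair of genes stood above the rest. Fbxl16 had the highest mean over all 8 libraries, 243 TPM, followed by Fbxo2 with 193 TPM. No other member exceeded 100 TPM; 27 lay between 20 and 100 TPM, 17 between 5 and 20 TPM and 8 below 5 TPM. The 2 leading genes supplied 23.1% of the summed mean level of the family, 1888 TPM. The median member stood at 22.9 TPM, against 19.8 TPM for all tested genes. After Fbxo2, a binder of high-mannose glycans that is abundant in brain, came Fbxw5 at 88.5, Fbxo21 at 83.2, Fbxo25 at 72.1 and Fbxo44 at 70.5 TPM. Next were Fbxw7, the adaptor for cyclin E, MYC and Notch, at 65.4 TPM and Fbxw11, a β-TrCP protein that binds phosphorylated β-catenin and IκB, at 63.8 TPM. Fbxw2 at 61.8 TPM and Fbxo11, known in other cells for the turnover of BCL6, at 61.4 TPM completed the 10 highest.

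**Figure D1:**
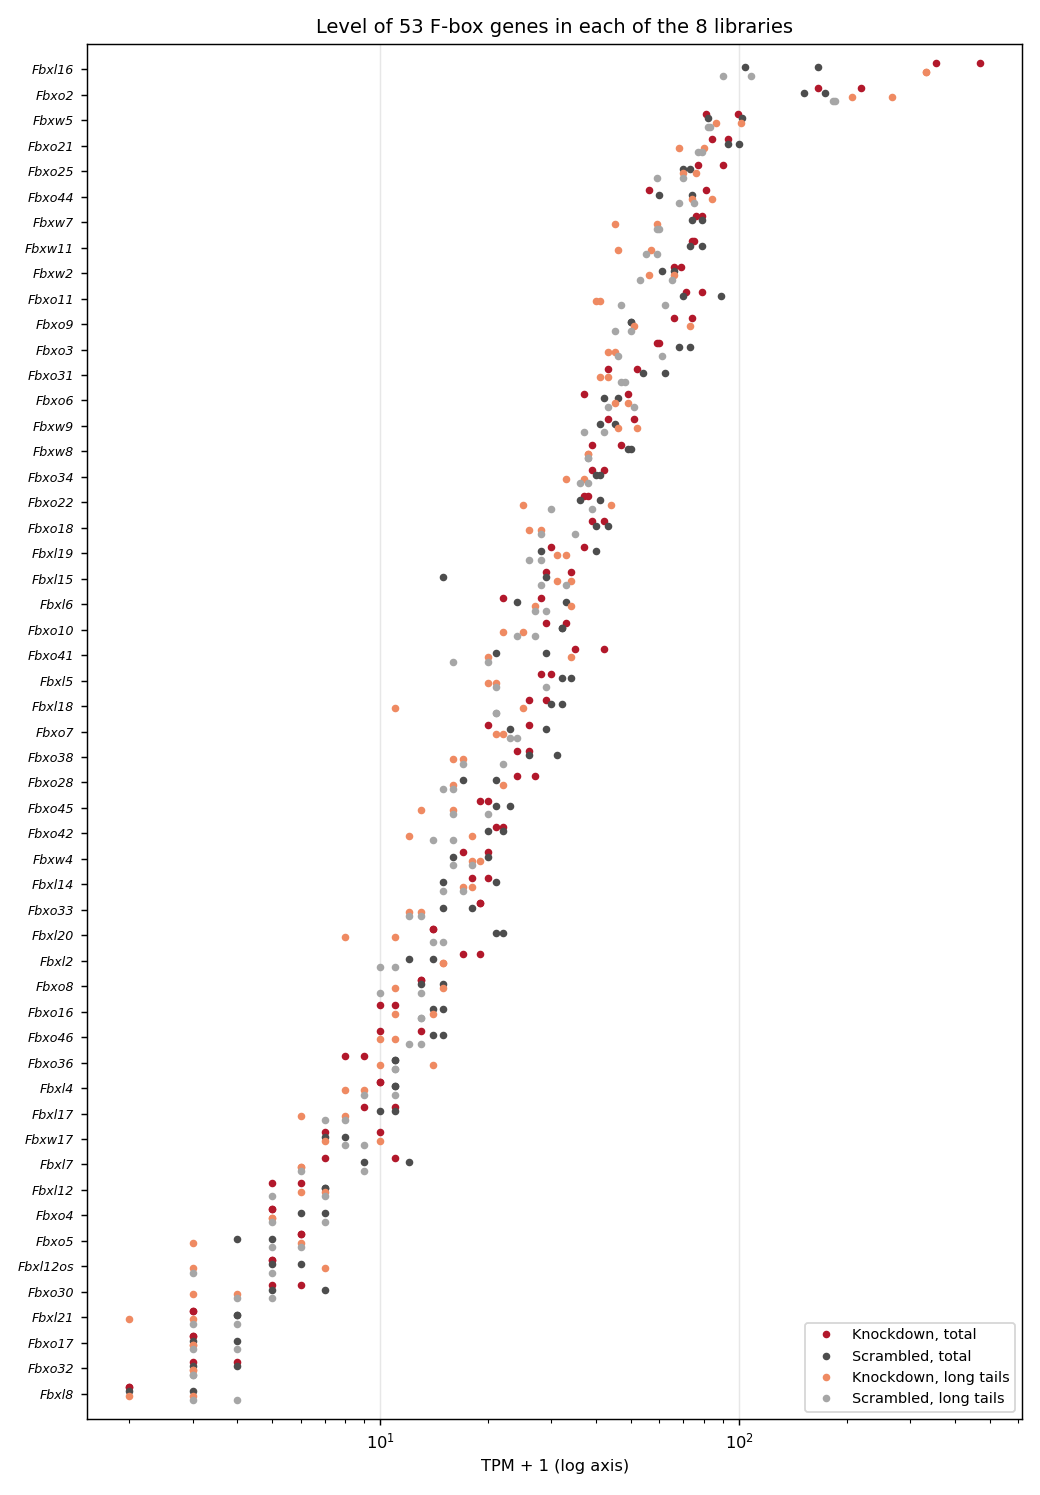
Level of 53 of the 54 F-box genes in every library (TPM + 1, log axis), ordered by the mean over all libraries, with colours for the 4 groups. Fbxl16 and Fbxo2 are the only members above 100 TPM on average, and Fbxl16 is the only gene whose knockdown and scrambled points stand apart by more than 3-fold between group means.

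The 24 remaining Fbxl, Fbxo and Fbxw entries fell below the limit, and 20 of them, 13 Fbxw, 6 Fbxo and 1 Fbxl, were listed at 0 in all 8 libraries. Just inside the limit stood Fbxl8 at 1.62 TPM and Fbxl21, Fbxo17 and Fbxo32 at 2.25 TPM each. Just outside it stood Fbxl22 at 0.75, Fbxw10 at 0.62 and Fbxo48 at 0.38 TPM. The table holds whole numbers, so a step of 1 TPM is large for the 8 members below 5 TPM.

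Fbxl16 was the one F-box gene with a several-fold higher level in knockdown neurons, and it was so in both fractions. In human cells FBXL16 has been reported to bind protein phosphatase 2A and, unlike most of the family, to show little binding to CUL1. The gene lies on the plus strand at chr17:25809085-25821255 (mm10, GENCODE M21) with a 3′ UTR of 1733 bases. It stood at 468 and 353 TPM in the knockdown total libraries, against 165 and 103 TPM in the scrambled total libraries. In long tails it stood at 330 and 331 TPM in the knockdown libraries, against 107 and 89 TPM in the scrambled libraries. The lowest knockdown library therefore lay more than 2 times above the highest scrambled library in total RNA and further above it in long tails.

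On the log2(TPM + 1) scale the knockdown minus scrambled difference of Fbxl16 was 1.63 in total RNA, a 3.10-fold ratio, and ranked 4th from the top of 13681 genes. In long tails it was 1.75, a 3.36-fold ratio, and ranked 3rd. Leaving out any library or changing the pseudocount, filter or scaling moved it between 1.30 and 1.97 in total RNA and between 1.62 and 1.88 in long tails. In the authors' deposited tables, which list genes below their own adjusted threshold, Fbxl16 had a log2 fold change of 1.35 in total RNA and 1.46 in long tails, each turned here so that positive means higher in knockdown. It was the only F-box gene among the 104 genes listed for total RNA and the 97 listed for long tails, out of 54 members and 13681 tested genes. The 2 knockdown long-tail libraries had nearly equal Fbxl16 TPM, at Rn45s shares of 18.6% and 2.90%. TPM is a share that includes Rn45s, so relative to the remaining RNA the 2 libraries were less equal.

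The next largest difference in the family was that of Fbxo41, 0.64 in total RNA and 0.54 in long tails, and the most negative was that of Fbxl20, −0.62 and −0.63. Fbxl16 thus lay more than 2 times as far from 0 as any other member on the log2 scale in both fractions. It took 20.1% and 17.6% of the summed F-box TPM in the knockdown total libraries, against 8.39% and 5.75% in the scrambled total libraries. In long tails its share was 17.8% and 17.2% in knockdown libraries, against 6.83% and 5.36% in scrambled libraries. The share does not depend on how a library as a whole is scaled, and the groups did not overlap.

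The order at the top of the family followed the hairpin. Fbxl16 ranked first and Fbxo2 second in all 4 knockdown libraries, and Fbxo2 ranked first and Fbxl16 second in all 4 scrambled libraries. The ratio of Fbxl16 to Fbxo2 was 2.16 and 2.14 in the knockdown total libraries, against 0.96 and 0.68 in the scrambled total libraries. In long tails the ratio was 1.61 and 1.25 in knockdown libraries, against 0.58 and 0.49 in scrambled libraries. Fbxo2 itself stood at 217 and 165 TPM in knockdown total libraries, against 172 and 151 TPM in scrambled total libraries, and these ranges overlapped. In long tails Fbxo2 was higher in knockdown without overlap, at 205 and 265 TPM, against 184 and 182 TPM in scrambled libraries. That difference was 0.35 ± 0.19 (standard error), with a limma adjusted p of 0.63.

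The summed level of the other 53 genes differed little by comparison. It was 1864 and 1654 TPM in the knockdown total libraries, against 1801 and 1689 TPM in the scrambled total libraries. In long tails it was 1523 and 1597 TPM in knockdown libraries, against 1459 and 1570 TPM in scrambled libraries. These sums overlapped in both fractions. Of the difference of 290.5 TPM between the family means in total RNA, 2169.5 TPM in knockdown and 1879 TPM in scrambled neurons, Fbxl16 accounted for 276.5 TPM, or 95.2%. In long tails it accounted for 232.5 of 278 TPM, or 83.6%.

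**Figure D2:**
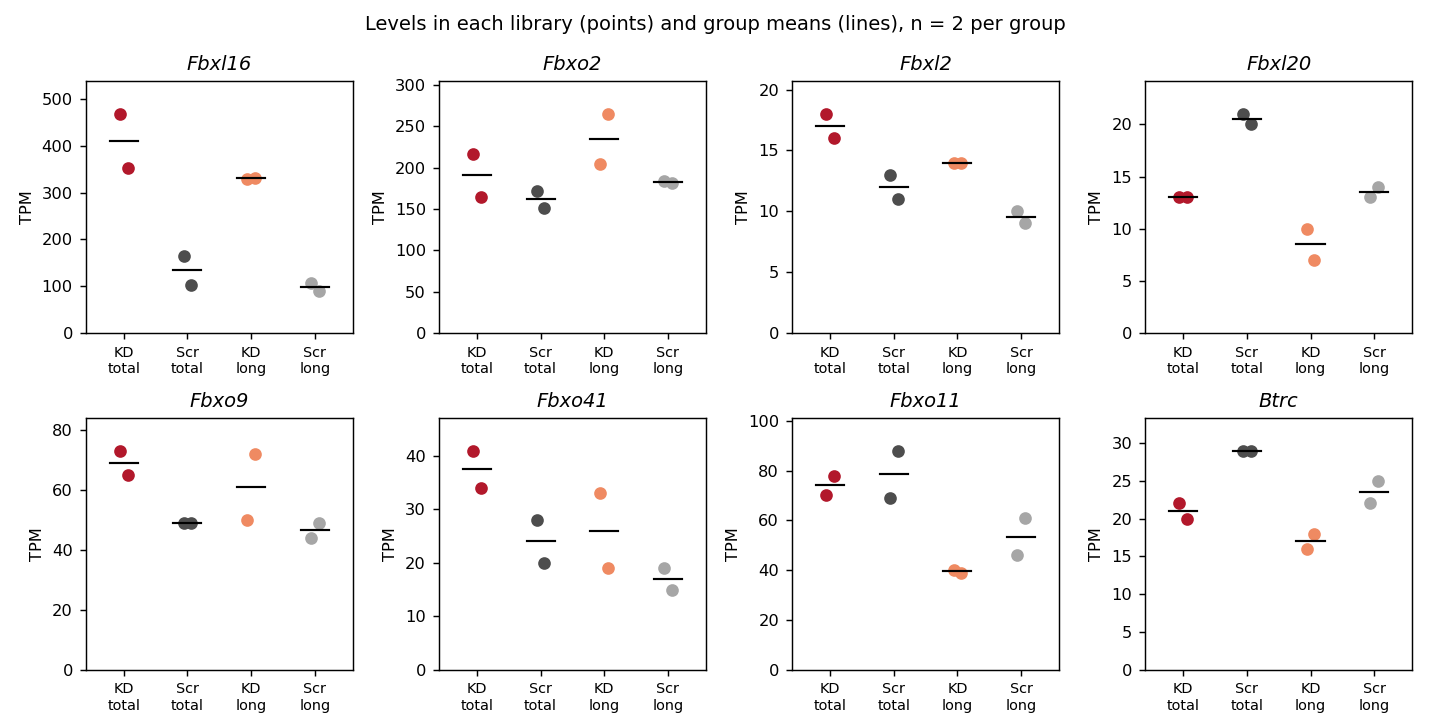
Level in each library (points, TPM, axis from 0) and group mean (lines, n = 2 libraries) of Fbxl16, 6 other F-box genes and the F-box gene Btrc, with KD for knockdown and Scr for scrambled. Knockdown and scrambled points of Fbxl16, Fbxl2, Fbxl20, Fbxo9 and Btrc do not overlap in either fraction, whereas those of Fbxo2 and Fbxo11 overlap in total RNA and those of Fbxo41 meet in long tails.

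Among the other 53 members no gene passed an adjusted p under 0.05 in either knockdown comparison by limma. The background was the same: 0% of all 13681 tested genes passed it in total RNA and 0% in long tails, the targeted Cnot7 included, with a limma adjusted p of 0.153 and 0.173. The 0% belongs to this limma fit of whole-number TPM. The authors' deposited results list 104 genes in total RNA and 97 in long tails past their own threshold, Cnot7 and Fbxl16 among them. With 2 libraries against 2, an exact permutation test cannot give a p under 0.333. At an unadjusted p under 0.05 in total RNA, 2 of the 53 were higher in knockdown, Fbxl2 and Fbxo9, beside 2.05% of all genes, and 2 were lower, Fbxl20 and Fbxo16, beside 4.3% of all genes. In long tails 1 was higher, Fbxl2, beside 2.25% of all genes, and 1 was lower, Fbxl20, beside 6.47%. These counts are near the background shares.

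As a group the 53 were centred where all genes were. In total RNA 17 were higher and 35 lower in knockdown, beside 32.6% and 60.2% of all genes, and 1 was equal, with a median difference of −0.08, against −0.07 for all tested genes; under quantile normalization the family median was 0.00. In long tails 20 were higher and 30 lower, beside 32% and 61.2% of all genes, and 3 were equal, with a median of −0.07, against −0.10 for all tested genes; under quantile normalization the family median was 0.06. By class, the median in total RNA was −0.18 over 16 Fbxl genes, −0.05 over 29 Fbxo genes and 0.03 over 8 Fbxw genes. In long tails the same medians were −0.17, −0.08 and 0.03. Differences between the classes were not tested.

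**Figure D3:**
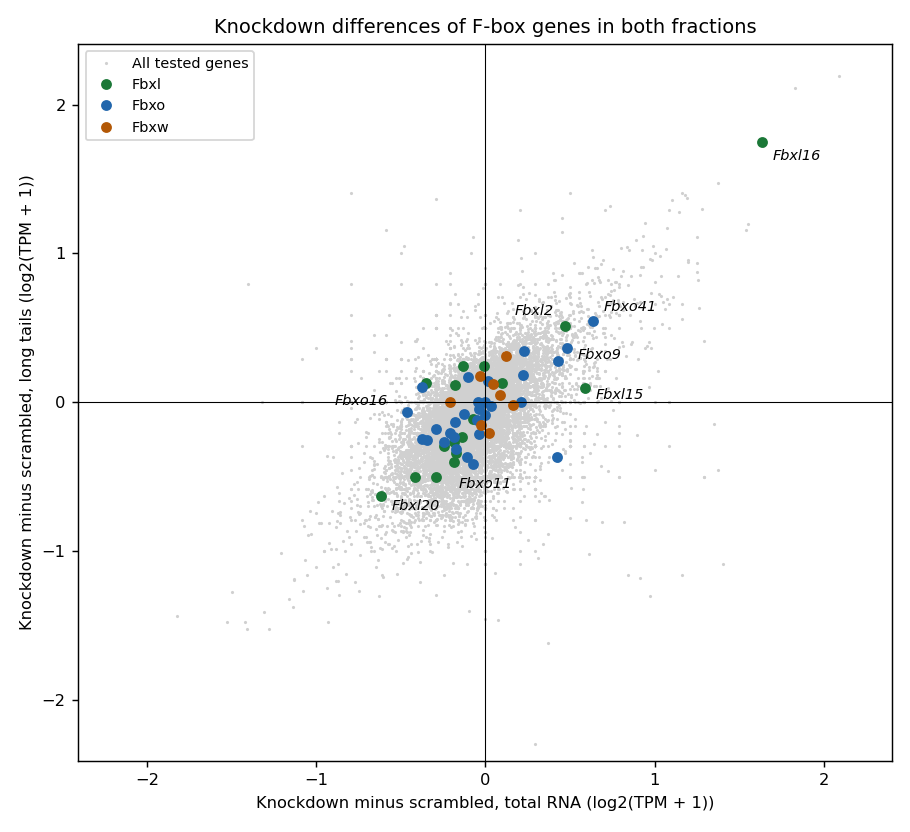
Knockdown minus scrambled difference of each F-box gene (coloured by class) in total RNA (horizontal axis) and long tails (vertical axis), in log2(TPM + 1), over all tested genes (grey). Fbxl16 lies alone at 1.63 and 1.75, and the other 53 members lie between −0.63 and 0.64 within the grey cloud.

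Counting genes whose knockdown and scrambled libraries did not overlap gave similar shares. In total RNA 7 of the 53 were higher in both knockdown libraries, beside 8.68% of all genes, and 14 were lower, beside 20.1%. In long tails 6 were higher, beside 8.91%, and 6 were lower, beside 17.1%. Without overlap in both fractions, Fbxl2 and Fbxo9 were higher, beside 2.71% of all genes, and Fbxl20, Fbxo3, Fbxo31 and Fbxo46 were lower, beside 9.49%.

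Fbxl2 and Fbxl20 are close paralogues and stood on opposite sides. FBXL2 is anchored to membranes by a lipid at its end, and mouse Fbxl20, also called Scrapper, is known as a synaptic adaptor for RIM1. Fbxl2 stood at 18 and 16 TPM in knockdown total libraries, against 13 and 11 TPM in scrambled total libraries, and at 14 and 14 TPM in knockdown long tails, against 10 and 9 TPM in scrambled long tails. Fbxl20 stood at 13 and 13 TPM in knockdown total libraries, against 21 and 20 TPM in scrambled total libraries, and at 10 and 7 TPM in knockdown long tails, against 13 and 14 TPM in scrambled long tails. Every knockdown library thus held more Fbxl2 than Fbxl20, and every scrambled library held less. Both genes were picked from these same values, with the smallest unadjusted limma p in their direction among the 53 in both fractions. Their opposite order and the ratio below therefore add no support.

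The Fbxl2 difference was 0.47 ± 0.14 in total RNA and 0.52 ± 0.14 in long tails (standard error, 2 libraries per group), with limma adjusted p-values of 0.63 and 0.49. The Fbxl20 difference was −0.62 ± 0.18 and −0.63 ± 0.18, with limma adjusted p-values of 0.61 and 0.50. Neither passed the threshold. The ratio of Fbxl2 to Fbxl20 was 1.38 and 1.23 in knockdown total libraries, against 0.62 and 0.55 in scrambled total libraries, and 1.40 and 2.00 in knockdown long tails, against 0.77 and 0.64 in scrambled long tails. Reads shared by the paralogues could be split between them, and Fbxl2 overlaps Ubp1 on the opposite strand over 13566 bases, and whether counting used the strand is not stated. Ubp1 stood at 37 and 33 TPM in knockdown total libraries, against 38 and 37 TPM in scrambled total libraries, and at 30 and 30 TPM in knockdown long tails, against 27 and 33 TPM in scrambled long tails.

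Fbxl15 had a difference of 0.59 in total RNA, with 33 and 28 TPM in knockdown libraries, against 28 and 14 TPM in scrambled libraries. It was 0.11 without the scrambled library at 14 TPM and 0.09 in long tails. Fbxl15 overlaps Cuedc2 on the opposite strand over 635 bases, and whether counting used the strand is not stated. Cuedc2 stood at 122 and 90 TPM in knockdown total libraries, against 84 and 97 TPM in scrambled total libraries.

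Among Fbxo genes, Fbxo9 and Fbxo41 had the most positive differences in both fractions. Fbxo9, an adaptor known in other cells for regulators of mTOR signalling, stood at 73 and 65 TPM in knockdown total libraries, against 49 and 49 TPM in scrambled total libraries, and at 50 and 72 TPM in knockdown long tails, against 44 and 49 TPM in scrambled long tails. Its long-tail groups were separated by 1 TPM. Fbxo41, a neuronal member needed for cerebellar development in mice, stood at 41 and 34 TPM in knockdown total libraries, against 28 and 20 TPM in scrambled total libraries, and at 33 and 19 TPM in knockdown long tails, against 19 and 15 TPM in scrambled long tails. Its long-tail groups met at 19 TPM. The Fbxo9 differences were 0.48 ± 0.19 and 0.36 ± 0.19, and those of Fbxo41 0.64 ± 0.31 and 0.54 ± 0.31 (standard error). All 4 had limma adjusted p-values of at least 0.62.

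Fbxo3, Fbxo31 and Fbxo46 were lower without overlap in both fractions. Fbxo3 stood at 59 and 58 TPM in knockdown total libraries, against 67 and 72 TPM in scrambled total libraries, and Fbxo31, an adaptor for cyclin D1, at 51 and 42 TPM, against 61 and 53 TPM. Fbxo46 stood at 12 and 9 TPM in knockdown total libraries, against 14 and 13 TPM in scrambled total libraries. Their differences ran from −0.35 to −0.24 in total RNA and from −0.27 to −0.18 in long tails, with limma adjusted p-values of at least 0.648. Fbxo16 was apart only in total RNA, with 10 and 9 TPM in knockdown libraries, against 13 and 14 TPM in scrambled libraries, and overlapped in long tails with 10 and 13 TPM, against 12 and 12 TPM. Fbxo11 was apart only in long tails, with 40 and 39 TPM in knockdown libraries, against 46 and 61 TPM in scrambled libraries. Its difference there was −0.41 ± 0.19 (standard error), with a limma adjusted p of 0.595, beside −0.08 in total RNA.

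Fbxw7, Fbxw11, Fbxo45 and Fbxl5, chosen for their known roles, had differences from −0.19 to 0.02 in total RNA and from −0.31 to −0.15 in long tails. Fbxw7 stood at 78 and 75 TPM in knockdown total libraries, against 73 and 78 TPM in scrambled total libraries. Fbxw11 stood at 74 and 73 TPM, against 78 and 72 TPM. Fbxo45, a neuronal member that works without CUL1 and is known for the synaptic vesicle priming protein MUNC13-1, stood at 19 and 18 TPM in knockdown total libraries, against 20 and 22 TPM in scrambled total libraries. Fbxl5, the iron-sensing adaptor for IRP2, stood at 27 and 29 TPM, against 31 and 33 TPM. Among these, the total-RNA groups overlapped for Fbxw7 and Fbxw11, and Fbxo45 and Fbxl5 were lower in knockdown, apart by 1 and 2 TPM. In long tails the differences were −0.21 for Fbxw7, −0.15 for Fbxw11, −0.31 for Fbxo45 and −0.27 for Fbxl5, and the groups overlapped or met for all 4.

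Long tails were compared with total RNA next. TPM is a share within a library, so this comparison shows whether a gene took a larger or smaller share of the long-tail fraction, not a tail length. In knockdown neurons 39 of the 54 members had a lower share in long tails, beside 68.7% of all genes, 12 a higher share, beside 26.7%, and 3 an equal one, with a median difference of −0.20, against −0.22 for all tested genes. In scrambled neurons 45 were lower, beside 74.3% of all genes, 7 were higher, beside 20.7%, and 2 were equal, with a median of −0.26, against −0.22 for all tested genes. Under quantile normalization, which moved the median of all genes by 0.25 in knockdown and 0.20 in scrambled neurons, the family medians were 0.06 and −0.02, so the direction follows that of all genes and depends on the scaling.

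No member passed an adjusted p under 0.05 by limma in either comparison of fractions, beside 0% of all genes in knockdown and 0% in scrambled neurons. At an unadjusted p under 0.05, 15 members were lower in knockdown long tails, beside 25.1% of all genes, and 1 was higher, Fbxo36, beside 0.921%. In scrambled neurons 11 were lower, beside 12.9% of all genes, and 0 were higher, beside 0.263%. Libraries did not overlap for 26 lower members in knockdown neurons, beside 40% of all genes, and for 24 in scrambled neurons, beside 39.6%. Non-overlap in the higher direction was seen in 1 member each, Fbxo36 in knockdown neurons beside 4.04% of all genes, and Fbxo2 in scrambled neurons beside 4.69%. Fbxo36 overlaps Trip12 on the opposite strand over 676 bases. Trip12 stood at 37 and 17 TPM in knockdown long tails, against 50 and 58 TPM in knockdown total RNA.

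Fbxo11 had the most negative long-tail difference in knockdown neurons. It stood at 40 and 39 TPM in knockdown long tails, against 70 and 78 TPM in knockdown total RNA, and at 46 and 61 TPM in scrambled long tails, against 69 and 88 TPM in scrambled total RNA. The fractions did not overlap under either hairpin. Its differences were −0.89 ± 0.19 and −0.55 ± 0.19, with limma adjusted p-values of 0.14 and 0.38. Its gene meets Msh6 on the opposite strand over 34 bases. Fbxl20 was lower in long tails by −0.58 ± 0.18 in knockdown and −0.57 ± 0.18 in scrambled neurons, and Fbxo33 by −0.61 ± 0.14 and −0.40 ± 0.14.

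Fbxl16 was unexceptional in this comparison. Its long-tail minus total difference was −0.30 in knockdown neurons, 34th from the top of 54 members, with a 95% interval of −0.95 to 0.35 and a limma adjusted p of 0.52. In scrambled neurons it was −0.41, 42nd of 54, with an interval of −1.07 to 0.24 and a limma adjusted p of 0.47. The knockdown difference of Fbxl16 was larger in long tails than in total RNA by 0.12, with an interval of −0.80 to 1.04, and leaving out 1 library moved it between −0.22 and 0.45. For all 54 members this interaction gave 0 genes at an adjusted p under 0.05 and 0 at an unadjusted p under 0.05, by limma, beside 0%, and beside 0.395% higher and 0.482% lower of all genes. The extremes in the family were Fbxl12 at 0.49 and Fbxo5, an inhibitor of the anaphase-promoting complex, at −0.79, both at or below 6 TPM in every library.

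Fbxo2, Fbxo44 and Fbxo6 went the other way from most of the family. Fbxo2 stood at 205 and 265 TPM in knockdown long tails, against 217 and 165 TPM in knockdown total RNA, and at 184 and 182 TPM in scrambled long tails, against 172 and 151 TPM in scrambled total RNA. The long-tail minus total differences in knockdown and scrambled neurons were 0.30 and 0.18 for Fbxo2, 0.23 and 0.10 for Fbxo44, and 0.14 and 0.09 for Fbxo6. The fractions overlapped for Fbxo2 in knockdown neurons, and for Fbxo44 and Fbxo6 under both hairpins. None passed the threshold, and leaving out 1 library turned Fbxo44 to −0.04 and Fbxo6 to −0.06 in knockdown neurons, and to −0.05 and −0.03 in scrambled neurons. They were among 5 members with a positive value under both hairpins, 9.26% of the family, against 16.1% of all genes; Fbxl15 and Fbxl8 were the others. The 3 genes are neighbours at chr4:148145716-148166424 (mm10, GENCODE M21), a span of 20.7 kb. Their 3′ UTRs of 325, 698 and 200 bases are shorter than the median of all tested genes, 1063 bases. Of the 23 members with such short UTRs and a mean of at least 5 TPM, 12 were lower in long tails in knockdown neurons and 17 in scrambled neurons. Fbxo6 was singled out after its values were seen.

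The share in long tails varied with the annotated 3′ UTR length. Over the 46 members averaging 5 TPM or more that have a 3′ UTR, Spearman's rho between UTR length and the long-tail minus total difference was −0.37 in knockdown and −0.54 in scrambled neurons. Over the 10805 genes that met the same conditions it was −0.54 and −0.49. These are descriptions across genes that share the same 8 libraries, and genes are not independent replicates. Of 23 members with a UTR above the median of all tested genes, 1063 bases, 22 had a lower share in long tails in knockdown neurons and 23 in scrambled neurons, beside 4904 and 5088 of 5531 such genes over the whole table. Of 23 with a shorter UTR these counts were 12 and 17, beside 2741 and 3289 of 5274 genes. The median differences were −0.43 and −0.38 for longer UTRs and −0.06 and −0.13 for shorter ones. Over all genes the medians were −0.42 and −0.34 for longer UTRs, and −0.02 and −0.09 for shorter ones.

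**Figure D4:**
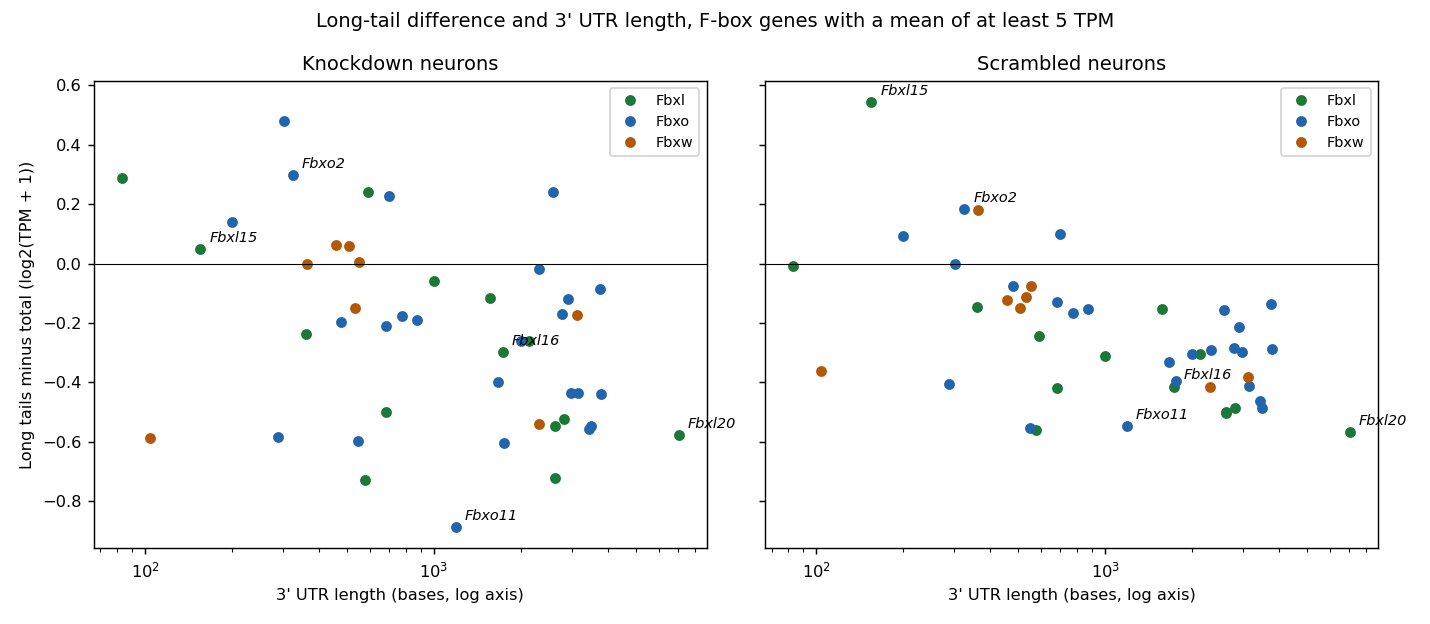
Long-tail minus total difference in log2(TPM + 1) against the annotated 3′ UTR length in bases (log axis) for F-box genes averaging 5 TPM or more, in knockdown neurons (left) and scrambled neurons (right). Members with long UTRs lie below 0 with 1 exception in knockdown neurons, on the scale as deposited; quantile normalization moves the median of all genes up by 0.25 in knockdown and 0.20 in scrambled neurons.

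Knockdown differences were also read by the presence of TTTTAT near the end, shown above. Leaving out Fbxl16, the 10 members with the letters had a median difference of 0.02 in total RNA and −0.12 in long tails, against −0.10 and −0.08 for the 39 members without them; the difference between these medians was not tested. Within the 10, values in total RNA ran from −0.62 for Fbxl20 to 0.42 for Fbxo5.

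The F-box genes with other symbols were read beside the 54. Btrc, the other β-TrCP gene and the paralogue of Fbxw11, was lower in knockdown without overlap: 22 and 20 TPM in knockdown total libraries, against 29 and 29 TPM in scrambled total libraries, and 16 and 18 TPM in knockdown long tails, against 22 and 25 TPM in scrambled long tails. The difference was −0.45 in total RNA and −0.44 in long tails. Of the 7 tested genes in this list, 0 passed the adjusted threshold in limma. In total RNA 2 were higher and 5 lower, and in long tails 7 of 7 were lower, beside 60.2% and 61.2% lower among all genes. At an unadjusted p under 0.05 in total RNA, 1 was higher (Lrrc29), beside 2.05% of all genes, and 1 was lower (Btrc), beside 4.3%. In long tails 2 were lower at that level (Btrc and the histone demethylase gene Kdm2b), beside 6.47% of all genes. Lrrc29 stood at only 1 or 2 TPM in every library. Skp2, the adaptor for p27, stood at 6 and 6 TPM in knockdown total libraries, against 8 and 7 TPM in scrambled total libraries.

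Genes of the SCF core and its E2 enzymes were mostly lower in knockdown total RNA by small amounts. Of 18 tested, 3 were higher and 15 lower in total RNA, beside 60.2% lower among all genes, and 7 were higher and 11 lower in long tails, beside 61.2%. None of the 18 had an unadjusted p under 0.05 in either fraction by limma. Beside this stood 2.05% higher and 4.3% lower of all genes in total RNA, and 2.25% and 6.47% in long tails. The median difference was −0.12 in total RNA and −0.10 in long tails, against −0.07 and −0.10 for all genes. Cul1 stood at 74 and 71 TPM in knockdown total libraries, against 73 and 78 TPM in scrambled total libraries. Skp1a stood at 695 and 754 TPM in knockdown total libraries, against 780 and 885 TPM in scrambled total libraries. Rbx1 stood at 102 and 95 TPM, against 103 and 110 TPM. Cul1 overlapped between the groups, whereas Skp1a and Rbx1 were lower in both knockdown libraries, Rbx1 by 1 TPM at the nearest pair.

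**Figure D5:**
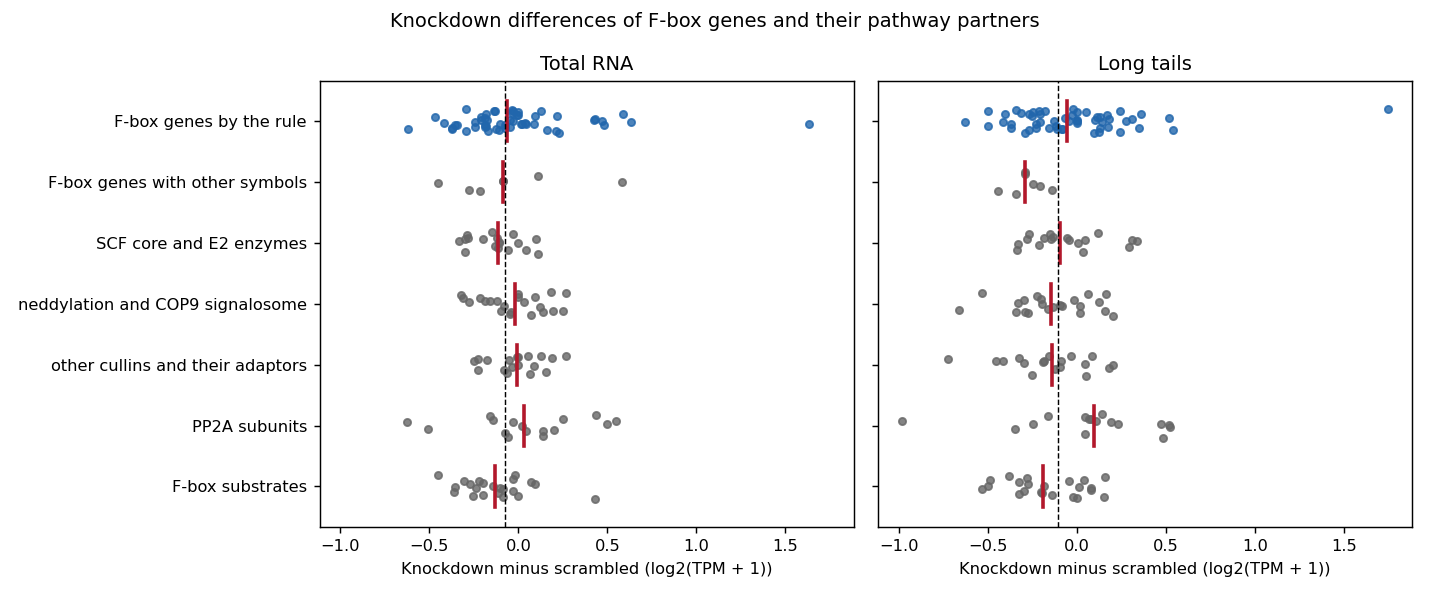
Knockdown minus scrambled difference in log2(TPM + 1) of each gene (points) and the median (red lines) for the 54 F-box genes and 6 lists of their pathway partners, in total RNA (left) and long tails (right). The dashed line is the median of all tested genes, −0.07 and −0.10; the list medians farthest from it in long tails are those of the 7 F-box genes with other symbols, at −0.29, and of the PP2A subunits, at 0.10, and Fbxl16 is the single point beyond 1.

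Of neddylation, which activates cullins, and the COP9 signalosome, which reverses it, 22 genes were tested. In total RNA 9 were higher and 11 lower, beside 32.6% and 60.2% of all genes. In long tails 7 were higher and 15 lower, beside 32% and 61.2%. At an unadjusted p under 0.05, 0 were higher and 1 lower in total RNA (Dcun1d2), beside 2.05% and 4.3% of all genes, and 0 higher and 2 lower in long tails (Cand1 and Usp15), beside 2.25% and 6.47%. Cand1, the exchange factor that lets CUL1 change its F-box subunit, stood at 40 and 43 TPM in knockdown total libraries, against 50 and 51 TPM in scrambled total libraries, and at 32 and 21 TPM in knockdown long tails, against 36 and 40 TPM in scrambled long tails. The list's median was −0.02 in total RNA and −0.15 in long tails. Other cullins and their adaptors, 18 tested, had 0 genes at an unadjusted p under 0.05 in either fraction. Beside this stood 2.05% higher and 4.3% lower of all genes in total RNA, and 2.25% and 6.47% in long tails. In total RNA 7 were higher and 9 lower, beside 32.6% and 60.2% of all genes. In long tails 5 were higher and 13 lower, beside 32% and 61.2%. The medians were 0.00 and −0.14. Within this list Cul7, the partner of Fbxw8 in neuronal dendrites, stood at 23 and 22 TPM in knockdown total libraries, against 26 and 27 TPM in scrambled total libraries.

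Subunits of protein phosphatase 2A, listed because of the reported binding of FBXL16, had counts on both sides in total RNA and mostly on the higher side in long tails. Of 16 tested, 9 were higher and 7 lower in total RNA, beside 32.6% and 60.2% of all genes, and 12 were higher and 4 lower in long tails, beside 32% and 61.2%. At an unadjusted p under 0.05, 3 were higher and 2 lower in total RNA, beside 2.05% and 4.3% of all genes, and 3 higher and 1 lower in long tails, beside 2.25% and 6.47%. None passed the adjusted threshold in limma, and the list received no test of its own. The neuronal regulatory subunit Ppp2r2b stood at 159 and 137 TPM in knockdown total libraries, against 109 and 93 TPM in scrambled total libraries, and Ppp2r5c at 160 and 133 TPM, against 104 and 102 TPM. Ppp2r3a stood at 11 and 13 TPM in knockdown total libraries, against 18 and 20 TPM in scrambled total libraries, and at 8 and 5 TPM in knockdown long tails, against 13 and 14 TPM in scrambled long tails. The groups did not overlap for any of these 3. The catalytic subunit Ppp2ca overlapped, with 596 and 531 TPM in knockdown total libraries, against 571 and 523 TPM in scrambled total libraries, and the other catalytic subunit, Ppp2cb, stood at 83 and 84 TPM, against 116 and 122 TPM. The median over the list was 0.03 in total RNA and 0.10 in long tails.

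Transcripts of known F-box substrates were mostly lower. Of 22 tested, 3 were higher and 18 lower in total RNA, beside 32.6% and 60.2% of all genes, and 6 were higher and 15 lower in long tails, beside 32% and 61.2%. In total RNA 0 were higher and 2 lower at an unadjusted p under 0.05 (Ccnd1 and Jun), beside 2.05% and 4.3% of all genes, and 0 higher and 2 lower in long tails (Jun and Wee1), beside 2.25% and 6.47%, with 0 at the adjusted threshold in limma and medians of −0.13 and −0.19. Jun, whose protein is a target of Fbxw7, stood at 92 and 91 TPM in knockdown total libraries, against 127 and 124 TPM in scrambled total libraries. Rims1, which encodes the Fbxl20 target RIM1, stood at 98 and 102 TPM in knockdown total libraries, against 69 and 79 TPM in scrambled total libraries, and at 69 and 31 TPM in knockdown long tails, against 43 and 47 TPM in scrambled long tails. Its groups were apart in total RNA and overlapped in long tails. These are levels of transcripts, and no protein was measured.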

How the data were processed

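Poly(A) RNA from 8 libraries, made with the Nextflex qRNA-Seq kit, was sequenced. The submitters' processing notes name the mm10 build, RSEM, TopHat2, CASAVA, DESeq and DESeq2; versions, roles and the strand setting are not given there. The gene table that the authors deposited holds TPM rounded to whole numbers, treated as a score with no read depth, so depth is unknown and no counting interval was made. The authors' 2 deposited result tables give, per the file headers, a mean of normalized signal, a log2 fold change with its standard error, a test score and a p-value for genes past their threshold. Their log2 fold change runs scrambled over knockdown and was turned.

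Genes averaging 1 TPM or more were taken as log2(TPM + 1), which understates the change of low genes. A limma model (3.58.1, R 4.3.3) with 4 group means and a mean-variance trend was fitted to all 8 libraries, with 5 two-sided contrasts and Benjamini-Hochberg adjustment over all 13681 genes. The script was tested on simulated data. Positions, 3′ UTR lengths and 3′ ends came from GENCODE M21, which held all 54 members. Lists of partners, substrates and cell type markers received no test of their own. The members and lists were chosen with earlier results of these data known. Named genes were Fbxl16, Cnot7, the 10 highest members, those with the smallest p per contrast, up to 3 per list and contrast, members apart in both fractions, and those next to the limit; others named were chosen for their known role. The values of 1 member are not reported here by name. Alternatives were other pseudocounts (0.5 and 5), filters, scalings, no trend, a replicate block and leaving out each library.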

Additional observations from a re-analysis of the deposited data

How the results depend on the processing

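Fbxl16 kept the sign of its knockdown difference under all 16 alternatives in both fractions. Under quantile normalization the median F-box difference was 0.0022 in total RNA and 0.0566 in long tails after knockdown, and 0.0646 in knockdown and −0.0233 in scrambled neurons for long tails minus total. For scrambled long tails minus total it was −0.193 with a pseudocount of 5 and −0.191 without Rn45s. These shifts follow those of all genes. Leaving out 1 library moved the median between −0.111 and −0.012 (knockdown, total RNA), −0.111 and −0.026 (knockdown, long tails), −0.285 and −0.142 (long tails minus total, knockdown), −0.298 and −0.173 (long tails minus total, scrambled), and −0.111 and 0.057 (interaction). The number of members at a limma adjusted p under 0.05 for long tails minus total in knockdown neurons ran from 0 to 6; it was 6 without knockdown long-tail replicate 1, when 2125 of 13681 genes passed, and the cause was not tested. Among those 6 were Fbxl20, Fbxo36, Fbxw7 and Fbxw11. In the other contrasts 0 members passed under every alternative. Over all genes, the count in the knockdown comparisons was 43 in total RNA and 54 in long tails with no filter, and 6 and 5 with a minimum mean of 5 TPM.

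In a fit with a replicate block, 0 members passed in any contrast and the family median was again −0.08 in total RNA and −0.07 in long tails. The labels state no pairing. Over 6810 genes, deviations of same-numbered libraries correlated at 0.25 to 0.76 between groups, except at −0.12 between the knockdown fractions. With 2 libraries a group and no pairing in the labels, the fit without the block was kept. The block gave 5 members at an unadjusted p under 0.05 in place of 4 in total RNA and 5 in place of 2 in long tails after knockdown. The share of all genes at that level in the blocked fit was not taken, so these counts say nothing particular of the family. The unknown depth and whole-number TPM limit what can be said of members below 5 TPM.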
